A study of Mus musculus with 6 samples.

Results

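The protamine and transition protein genes are Prm1, Prm2, Prm3, Tnp1 and Tnp2, taken by gene name from a table of read counts; all 5 were found among its 22770 gene rows and all 5 passed the filter on low counts, which left 19776 genes. The counts come from bulk Smart-seq2, a full-length method that amplifies cDNA of polyadenylated RNA by PCR, applied to round spermatids sorted from mouse testis on postnatal day 28, mostly at step 8 of spermatid differentiation. The genotype labelled Eif5a SKO, an abbreviation that the labels do not expand, had 3 libraries, and wild type (WT) had 3. The deletion strategy, any Cre driver, the strain and the number of animals behind a library were not stated in what was read here. The product of Eif5a assists elongating ribosomes where they stall, runs of proline codons being the best known case.

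While a round spermatid becomes a sperm, its histones are removed and replaced first by the transition proteins TNP1 and TNP2 and then by the protamines PRM1 and PRM2, small arginine-rich proteins that compact the DNA. The genes are transcribed in round spermatids, but their mRNAs are stored, bound by protein, and translated days later in elongating spermatids. A level of mRNA at step 8 is therefore a level of a largely stored message, and these data hold no measure of its translation.

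In SKO libraries Prm1, Prm3 and Tnp2 mRNA was higher than in WT libraries, by 1.65-fold, 1.70-fold and 1.53-fold. Prm2 was 1.34-fold as abundant in SKO as in WT and Tnp1 1.12-fold, and neither passed the test. So 3 of the 5 genes were called higher and none lower at an adjusted p under 0.05 in edgeR's quasi-likelihood test, where 42.0% of all genes tested were called in either direction, 21.2% higher and 20.9% lower. The median log2 fold change of the 5 genes was 0.62, against 0.01 over all genes tested. Short abundant mRNAs as a class were higher in SKO libraries by more than these 5. The calls did not hold after a correction for length and base composition, which left part of that class's rise in place, as described further on.

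Prm1, Prm2, Prm3 and Tnp2 lie in a cluster of 17.9 kb on the minus strand of chromosome 16, at 10787936 to 10805839 (GRCm38, GENCODE M21), in the order Prm1, Prm2, Prm3, Tnp2 in the direction of transcription. Tnp1 stands alone on the minus strand of chromosome 1, at 73015074 to 73015909. All 5 mRNAs are short: the representative transcripts are 469 bases for Prm1, 621 for Prm2, 410 for Prm3, 437 for Tnp1 and 554 for Tnp2. Prm3 has 1 exon and each of the others 2.

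The 250 bases before each transcription start are shown because neighbours in the cluster gave different fold changes, and because the activator CREM, whose mRNA is described further on, is known to act through cAMP-response elements near the starts of such spermatid genes. The windows are RefSeq's (GRCm38.p6), all on the minus strand and written 5′ to 3′, with chr16:10796824-10797073 for Prm1, chr16:10792106-10792355 for Prm2, chr16:10790915-10791164 for Prm3, chr16:10788656-10788905 for Tnp2 and chr1:73015900-73016149 for Tnp1. The windows of Prm1 and Prm2 lie inside the GENCODE bounds of these genes, 10796326 to 10805839 and 10791380 to 10796134, each with 2 annotated transcripts. The bases before those outer bounds are not shown. Capitals mark the matches to TGANNTCA, a spelling of the cAMP-response element, to TATAA and to CCAAT, each searched on both strands.
Prm1: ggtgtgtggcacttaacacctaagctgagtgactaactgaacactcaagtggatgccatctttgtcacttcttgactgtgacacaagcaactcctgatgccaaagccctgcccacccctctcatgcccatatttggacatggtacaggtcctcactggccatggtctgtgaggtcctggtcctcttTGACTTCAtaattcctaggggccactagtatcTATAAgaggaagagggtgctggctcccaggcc
Prm2: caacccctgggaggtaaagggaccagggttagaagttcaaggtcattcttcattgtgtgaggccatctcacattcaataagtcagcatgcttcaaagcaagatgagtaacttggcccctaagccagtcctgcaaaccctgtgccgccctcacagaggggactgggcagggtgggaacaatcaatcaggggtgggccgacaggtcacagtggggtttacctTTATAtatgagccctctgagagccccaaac
Prm3: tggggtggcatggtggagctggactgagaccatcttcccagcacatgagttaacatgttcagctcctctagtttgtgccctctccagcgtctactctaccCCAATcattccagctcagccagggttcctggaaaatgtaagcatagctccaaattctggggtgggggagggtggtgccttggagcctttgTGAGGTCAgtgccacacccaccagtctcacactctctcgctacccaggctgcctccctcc
Tnp2: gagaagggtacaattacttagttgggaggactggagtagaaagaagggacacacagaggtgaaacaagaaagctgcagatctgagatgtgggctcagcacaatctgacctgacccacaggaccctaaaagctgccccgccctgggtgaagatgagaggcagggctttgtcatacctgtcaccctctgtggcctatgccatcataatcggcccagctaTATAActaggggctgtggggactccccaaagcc
Tnp1: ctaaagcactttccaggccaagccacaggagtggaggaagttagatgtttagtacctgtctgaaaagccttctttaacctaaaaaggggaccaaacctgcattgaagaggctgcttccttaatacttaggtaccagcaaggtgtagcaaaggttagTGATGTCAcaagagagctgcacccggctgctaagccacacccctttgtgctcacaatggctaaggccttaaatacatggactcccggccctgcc
TGANNTCA was found in Prm1 at 64 to 57 bases before the start, in Prm3 at 60 to 53 and in Tnp1 at 94 to 87; among all 32851 windows of the same length 11.9% hold it. TATAA was found in Prm1 at 32 to 28 bases before the start, in Tnp2 at 33 to 29 and, on the opposite strand, in Prm2 at 30 to 26, against 22.8% of all windows. CCAAT, present in 33.8% of all windows, was found in Prm3 at 150 to 146 bases before the start. The matches do not sort with the test: of the genes called higher, Prm1 and Prm3 hold TGANNTCA and Tnp2 does not, while Tnp1, which was not called, holds it. A match describes the letters of the window and is not evidence of binding.

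The coding sequences show how unlike the proteins are that these mRNAs encode. Prm1 is printed because arginine makes up most of it: 28 of its 51 codons, or 54.9%, encode arginine (capitals), 9 encode cysteine, whose sulphurs cross-link sperm chromatin, and 0 encode proline.
Prm1: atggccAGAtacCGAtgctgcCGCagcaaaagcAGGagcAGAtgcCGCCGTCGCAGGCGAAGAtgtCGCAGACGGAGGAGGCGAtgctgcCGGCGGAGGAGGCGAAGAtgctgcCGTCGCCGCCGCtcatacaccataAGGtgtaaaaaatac
In Prm2 38 of 107 codons encode arginine and 16 histidine. Prm3, although named a protamine, has 2 arginine codons among 101, and 27 encode the acidic residue glutamate, 14 of them in a row. Tnp1 has 11 arginine and 10 lysine codons among 55. Tnp2 has 22 serine codons, 16 arginine, 11 lysine and 13 proline codons among 117, and its longest run of proline codons is 2.

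The Eif5a count itself was 333, 338 and 270 in SKO replicates 1, 2 and 3, against 41149, 36162 and 41278 in WT replicates 1, 2 and 3. On the scale used from here on, read counts normalised to TMM-scaled library size (CPM), that is 6.17 ± 0.771 in SKO and 660 ± 42.3 in WT (SD, n = 3 each), and the fall by 6.74 on the log2 scale passed the test (SE 0.17, adjusted p = 9.54e-08). Libraries held 52055193 to 60970931 counts. SKO replicate 3 stood apart from the other SKO libraries on the second principal component of all genes, which held 13.5% of the variance, so values without it are given beside those with it. Nothing says that replicates came from separate animals, so p-values measure the spread between these libraries, and because PCR copies were not counted as molecules the depth limits counting error alone.

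Prm1 encodes the protamine that is made in its mature form. Its CPM was 525, 557 and 782 in SKO replicates 1, 2 and 3, against 390, 342 and 394 in WT replicates 1, 2 and 3. Every SKO library was above every WT library, with SKO replicate 3 the highest. The means were 621 ± 140 CPM in SKO and 376 ± 29.0 CPM in WT (SD, n = 3 each), the log2 fold change was 0.73 (SE 0.17, 95% interval 0.35 to 1.10) and the adjusted p in edgeR's quasi-likelihood test was 0.00662. Without SKO replicate 3 the log2 fold change was 0.49 (adjusted p = 0.00121).

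Prm2 encodes the second protamine, made as a precursor that is cut after it binds DNA. Its CPM was 528, 543 and 820 in SKO replicates 1, 2 and 3, against 471, 448 and 494 in WT replicates 1, 2 and 3. The groups did not overlap, but the nearest libraries were close, SKO replicate 1 being 1.12 times the WT mean. The means were 631 ± 165 CPM in SKO and 471 ± 23.0 CPM in WT (SD, n = 3 each), with a log2 fold change of 0.42 (SE 0.18, interval 0.03 to 0.81). The edgeR adjusted p was 0.0801, so Prm2 was not called. Without SKO replicate 3 the log2 fold change was 0.15 (adjusted p = 0.125).

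Prm3 encodes the acidic protein described above and lies between Prm2 and Tnp2. Its CPM was 145, 169 and 262 in SKO replicates 1, 2 and 3, against 113, 109 and 116 in WT replicates 1, 2 and 3. All SKO values were above all WT values, and SKO replicate 3 was 2.32 times the WT mean, the widest ratio of any library for the 5 genes. Mean levels were 192 ± 61.9 CPM in SKO and 113 ± 3.92 CPM in WT (SD, n = 3 each), and the log2 fold change of 0.77 (SE 0.20, interval 0.31 to 1.22) was called higher (edgeR adjusted p = 0.0136). The call ended without WT replicate 2 (log2 fold change 0.74, adjusted p = 0.0578), and the value was 0.44 without SKO replicate 3 (adjusted p = 0.00604).

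Tnp1, the more basic and smaller of the transition proteins, was the least abundant of the 5 mRNAs and the one whose groups overlapped. Its CPM was 42.0, 46.6 and 75.3 in SKO replicates 1, 2 and 3, against 53.1, 44.9 and 47.9 in WT replicates 1, 2 and 3. SKO replicate 1 was below every WT library and SKO replicate 3 above all of them. The means were 54.6 ± 18.1 CPM in SKO and 48.6 ± 4.15 CPM in WT (SD, n = 3 each), and the log2 fold change of 0.17 (SE 0.22, interval −0.32 to 0.65) did not pass edgeR's test (adjusted p = 0.566). Without SKO replicate 3 it was −0.17 (adjusted p = 0.299), so its direction rests on that library.

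The Tnp1 value has a further limit in its annotation. The gene lies inside 1700027A15Rik, an antisense transcript on the plus strand, and 40 exonic bases are shared, at 73015725 to 73015764 of chromosome 1. The strand setting of the counting was not stated, and without strand the reads of such a pair cannot be told apart. The coding sequence of Tnp1 is printed to show where the shared bases fall (capitals). They lie nearer its end than its start, across a stretch rich in lysine and arginine codons.
Tnp1: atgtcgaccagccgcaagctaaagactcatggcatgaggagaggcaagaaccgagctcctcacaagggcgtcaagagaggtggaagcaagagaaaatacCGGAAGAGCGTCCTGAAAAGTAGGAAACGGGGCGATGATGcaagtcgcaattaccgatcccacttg
1700027A15Rik had 26.3, 26.5 and 34.6 CPM in SKO replicates 1, 2 and 3, against 30.1, 21.3 and 23.7 CPM in WT replicates 1, 2 and 3. These groups overlapped too (log2 fold change 0.22, SE 0.18, edgeR adjusted p = 0.375).

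Tnp2, the larger transition protein, rich in serine and proline, was the most abundant of the 5 mRNAs. Its CPM was 764, 796 and 1149.3 in SKO replicates 1, 2 and 3, against 598, 539 and 630 in WT replicates 1, 2 and 3. Every SKO library was above every WT library. The means were 903 ± 214 CPM in SKO and 589 ± 46.0 CPM in WT (SD, n = 3 each), and the log2 fold change of 0.62 (SE 0.17, interval 0.24 to 1.00) was called higher (edgeR adjusted p = 0.0159). Without SKO replicate 3 it was 0.37 (adjusted p = 0.00426); the call ended without WT replicate 1 (0.63, adjusted p = 0.0541) and without WT replicate 2 (0.55, adjusted p = 0.0709).

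**Figure D1:**
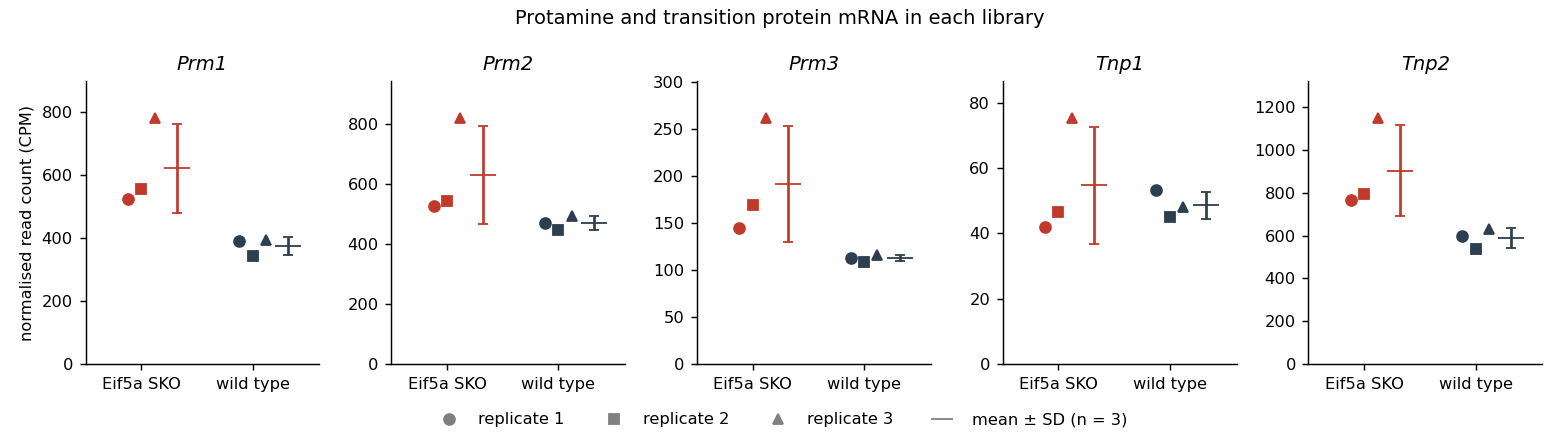
Normalised read count (CPM, y axis from 0, a scale of its own in each panel) of the 5 genes in each SKO and WT library; marker shapes give the replicate number and the horizontal dash with bars the mean ± SD (n = 3). SKO replicate 3 is the highest library in every panel, and Tnp1 is the panel in which the groups overlap.

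For 4 of the 5 genes the SKO libraries were all above the WT libraries, an arrangement found in 27.3% of all genes tested. SKO replicate 3 was the highest of the 6 libraries for all 5 genes, at 1.55 to 2.32 times the WT mean, while SKO replicates 1 and 2 were at 0.864 to 1.5 times. In bulk RNA fewer cells of a type and less RNA per cell cannot be told apart, and the same holds for more of either.

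The 5 genes together held 0.182%, 0.187% and 0.300% of all counts in SKO replicates 1, 2 and 3, against 0.176%, 0.163% and 0.181% in WT replicates 1, 2 and 3. This share needs no scaling between libraries. It averaged 0.223% ± 0.0667 in SKO and 0.173% ± 0.00945 in WT (SD, n = 3 each), with SKO replicates 1 and 2 only just above the highest WT library. A 2-sided exact permutation test gave p = 0.1, the smallest that 3 libraries against 3 allow. Without SKO replicate 3 the difference in share fell to 0.011 percentage points, against 0.0494 with all 6 libraries.

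Per kilobase of transcript, the scale on which levels of different genes can be compared, the order was Tnp2, Prm1, Prm2, Prm3, Tnp1 in both genotypes. Tnp2 stood at 1629.8 ± 386 CPM per kb in SKO and 1063 ± 83.0 in WT, and Prm1 at 1324.4 ± 299 in SKO and 801 ± 61.9 in WT (SD, n = 3 each). Prm2 was at 1015.5 ± 265 CPM per kb in SKO and 759 ± 37.0 in WT. Prm3 followed at 468 ± 151 in SKO and 275 ± 9.57 in WT, and Tnp1 was last at 125 ± 41.3 in SKO and 111 ± 9.50 in WT.

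Neighbours in that order were not equally distinct. Ranges overlapped between Tnp2 and Prm1 and between Prm1 and Prm2 in SKO, where SKO replicate 3 widened them, and between Prm1 and Prm2 in WT. Within each SKO library, though, Prm1 was 1.26 to 1.36 times Prm2 per kb, against 1.01 to 1.10 times within each WT library. Prm2 was above Prm3, and Prm3 above Tnp1, without overlap in either genotype. Tnp2 ranked 28 to 52 in SKO and 34 to 41 in WT among 13270 coding genes ordered by CPM per kb. Tnp1 ranked 786 to 1355 in SKO and 972 to 1081 in WT on the same scale. The transition proteins thus mark the top and the bottom of the family, both far up the list of all coding genes.

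Ratios of counts within a library compare the members without any scaling. Prm1 over Prm2 was 0.993, 1.03 and 0.953 in SKO replicates 1, 2 and 3, against 0.829, 0.764 and 0.798 in WT replicates 1, 2 and 3. The ratio was thus higher in every SKO library than in any WT library. Equal counts are not equal mRNA levels here, because the Prm2 transcript is the longer. Per kb the ratio averaged 1.31 in SKO and 1.05 in WT, so on that scale WT was nearer to equal. For the counts the mean was 0.990 ± 0.0361 in SKO and 0.797 ± 0.0325 in WT (SD, n = 3 each). The log2 difference was 0.31. The 2-sided exact permutation p was 0.1, the smallest possible, or 0.133 adjusted over the 4 ratios computed. SKO replicate 3 does not stand out here, and leaving out any library in turn kept the log2 difference between 0.284 and 0.343. After correction for transcript length and GC content it was 0.17.

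Tnp1 over Tnp2 was 0.0550, 0.0585 and 0.0656 in SKO replicates 1, 2 and 3, against 0.0888, 0.0832 and 0.0761 in WT replicates 1, 2 and 3. Tnp1 was thus a smaller part of the transition protein mRNA in every SKO library, at a mean of 0.0597 ± 0.00536 in SKO and 0.0827 ± 0.00636 in WT (SD, n = 3 each). The log2 difference was −0.47, and −0.60 after the length and GC correction. Its exact permutation p was 0.1 (2-sided, 0.133 adjusted over the 4 ratios), and with a library left out the difference stayed between −0.541 and −0.415.

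The summed protamine counts, Prm1 plus Prm2, over the summed transition protein counts, Tnp1 plus Tnp2, came to 1.31 in each of the SKO libraries, against 1.32, 1.35 and 1.31 in WT replicates 1, 2 and 3. The means were 1.31 ± 0.00134 in SKO and 1.33 ± 0.0218 in WT (SD, n = 3 each), 1.66% lower in SKO. The groups did not overlap before rounding, so the exact permutation p was again 0.1 (2-sided, 0.133 adjusted), for a log2 difference of −0.02. The transition protein sum consists mostly of Tnp2 counts.

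Prm3 over Prm1 plus Prm2 was 0.137, 0.154 and 0.164 in SKO replicates 1, 2 and 3, against 0.132, 0.137 and 0.131 in WT replicates 1, 2 and 3. SKO replicate 1 met WT replicate 2, so the groups overlapped. The means of 0.152 ± 0.0132 in SKO and 0.133 ± 0.00356 in WT (SD, n = 3 each) differed by 0.18 on the log2 scale (exact permutation p = 0.2, adjusted p = 0.2), and by 0.07 after the length and GC correction.

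**Figure D2:**
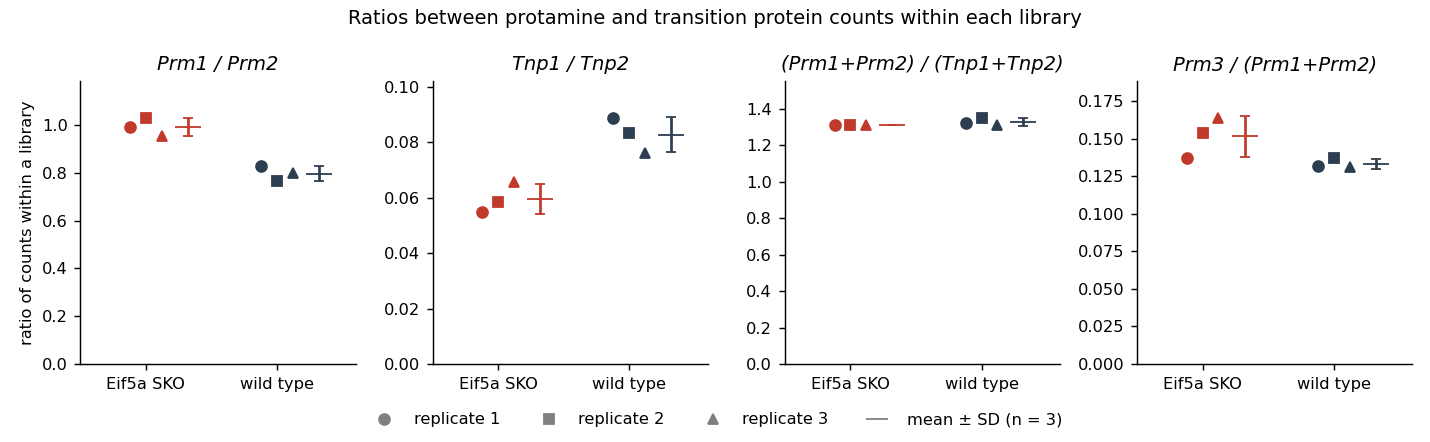
Ratios of counts within each SKO and WT library (y axis from 0, a scale of its own in each panel), with the mean ± SD (n = 3). Prm1 over Prm2 is higher and Tnp1 over Tnp2 lower in all SKO libraries, while the ratio of protamine to transition protein counts lies between 1.31 and 1.35 in all 6 libraries.

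Among abundant coding genes the fold change varied with transcript length, and the 5 genes are short. Among coding genes of at least 100 CPM, set out in 12 bins by length, the median log2 fold change was 0.91 in the bin of shortest transcripts (median length 640.5 bases) and −0.02 in the bin around 2121 bases. Past that it was lowest at −0.12, around 2908 bases, and was 0.04 and 0.21 in the bins of the longest transcripts. Of the 110 coding genes with transcripts of 400 to 700 bases and at least 100 CPM, 100 were called higher (90.9%) and 1 lower (0.909%), with a median log2 fold change of 0.94 and quartiles of 0.78 and 1.17. Of these 110 genes 22 had a lower fold change than Prm1, 27 a lower one than Prm3 and 14 a lower one than Tnp2. Below Prm2 there were 10 and below Tnp1 4. All 5 genes were therefore under the lower quartile of the short abundant class, although 3 of them were called higher against all genes. SKO replicate 3 was also the highest for this class, whose median log2 ratio to the WT mean was 0.71, 0.87 and 1.25 in SKO replicates 1, 2 and 3.

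**Figure D3:**
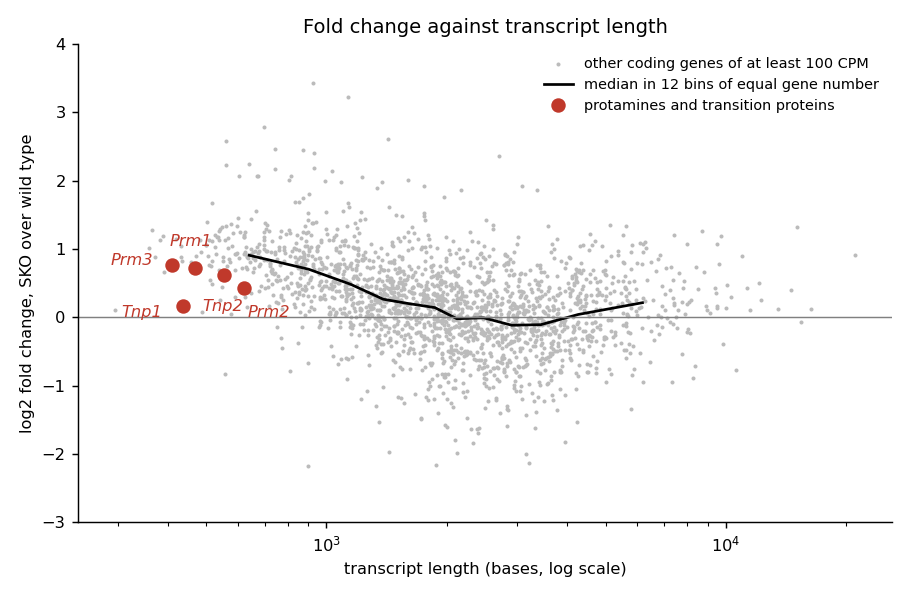
Log2 fold change, SKO over WT, against transcript length (bases, log scale) for 2055 other coding genes of at least 100 CPM in grey (1 gene lies outside the axis), the 5 protamine and transition protein genes in red, and the median in 12 bins of equal gene number as a line. The line is at 0.91 in the bin of the shortest transcripts and the red points lie below the line's short end.

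When a smooth trend of transcript length and GC content was removed from each library, none of the 5 genes was called higher. Prm1 then stood at 0.12 on the log2 scale (edgeR adjusted p = 0.297), Prm3 at 0.10 (0.473), Tnp2 at 0.0933 (0.397) and Prm2 at −0.049 (0.698). Tnp1 was called lower, at −0.49 (adjusted p = 0.026). The trend itself differed between SKO and WT by 0.44 to 0.63 on the log2 scale at these 5 genes. The correction did not level the short abundant class. The median log2 fold change of its 110 genes was still 0.44 after it, against −0.04 over all genes, and all 5 members were below that class median.

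Scaling the libraries on short coding transcripts alone, a choice made after the data were seen, puts the reference at genes close to the members in length. The members were among them. The other transcripts of this set had a median log2 fold change of 0.93 with TMM scaling over all genes, above every member. Values below 0 for the members therefore followed largely from the choice of reference and are no separate result. The median of all genes then moved to −0.869, and the members' log2 fold changes were −0.19 for Prm1 (edgeR adjusted p = 0.289), −0.16 for Prm3 (0.416), −0.30 for Tnp2 (0.11), −0.50 for Prm2 (0.0211) and −0.76 for Tnp1 (0.00599). Every member was above the shifted median of all genes in this scaling. With library totals as the sole scaling, under which the median of all genes was −0.228, Prm1 stayed called higher at 0.50 (adjusted p = 0.0487), and Prm3 (0.54, adjusted p = 0.074) and Tnp2 (0.39, adjusted p = 0.115) were no longer called. The order among the members, with Tnp1 lowest and Prm2 next, was the same in each of these scalings. They differ only in a factor per library, which moves all genes nearly alike, so this order could hardly change.

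**Figure D4:**
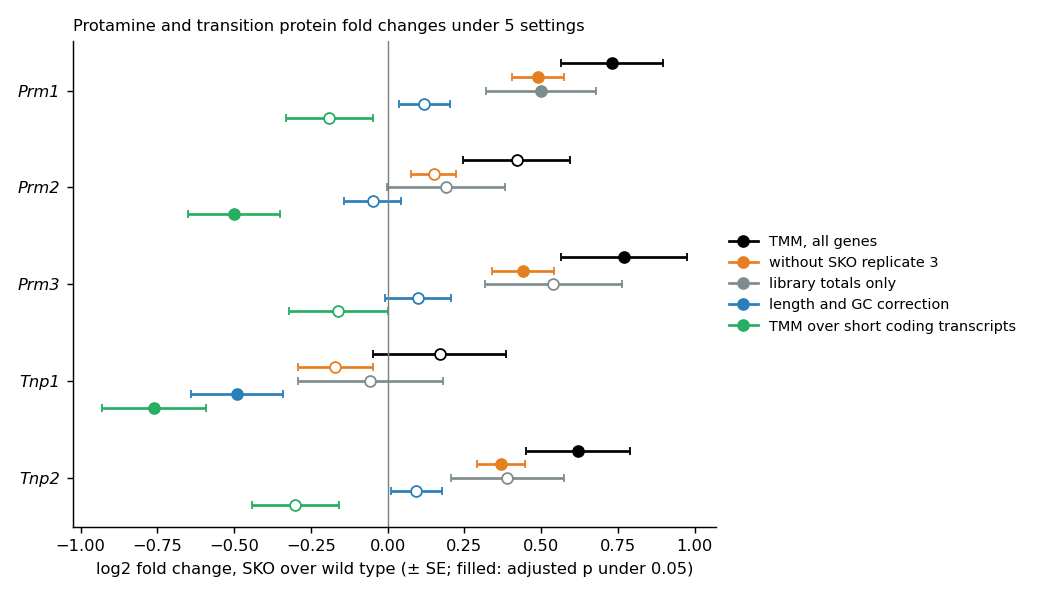
Log2 fold change, SKO over WT, with its SE for the 5 genes under 5 settings (TMM scaling over all genes, the same without SKO replicate 3, library totals, a length and GC correction, and TMM scaling over short coding transcripts); filled points have an adjusted p under 0.05. Tnp1 is the lowest of the 5 genes under each setting, and all 5 are below 0 with scaling over short coding transcripts.

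Genes around the cluster give a local comparison. Of 8 genes tested within 250 kb of either locus, Clec16a, 43.1 kb from the cluster, had 66.6 ± 7.34 CPM in SKO and 46.5 ± 2.85 CPM in WT (SD, n = 3 each) and was called higher (log2 fold change 0.52, SE 0.14, edgeR adjusted p = 0.0152). Its call ended without SKO replicate 2 (0.42, adjusted p = 0.0703), WT replicate 1 (0.52, 0.0677) or WT replicate 3 (0.47, 0.0731), and with library totals (0.27, 0.123). Litaf, 153 kb away, was called higher from a low level, 2.20 ± 0.760 CPM in SKO and 0.472 ± 0.286 CPM in WT (log2 fold change 2.21, adjusted p = 0.00514). Dexi, at 6.19 ± 0.191 CPM in SKO and 7.74 ± 0.106 CPM in WT, was not called (−0.32, adjusted p = 0.149).

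Socs1, the nearest gene at 2.4 kb, was at 0.586 ± 0.144 CPM in SKO and 0.542 ± 0.317 CPM in WT. Rmi2, at 29.2 kb, was at 0.631 ± 0.483 CPM in SKO and 0.590 ± 0.299 CPM in WT. Both are far below every mRNA of the cluster on the same scale. The long annotated form of Prm1 also spans the pseudogene Gm10343 and partly overlaps the antisense gene Gm46563, with 0 shared exonic bases. Gm46563 was at 0.806, 0.612 and 1.54 CPM in SKO replicates 1, 2 and 3, against 1.04, 1.11 and 0.850 CPM in WT replicates 1, 2 and 3. Gm10343 was at 0.269, 0.260 and 3.82 CPM in SKO replicates 1, 2 and 3, against 0.767, 0.835 and 0.705 CPM in WT replicates 1, 2 and 3, so it was high in SKO replicate 3 and below every WT library in the other SKO libraries.

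The genes whose profile over the 6 libraries was most like each member's were looked for among 1969 genes with symbol names and a mean of at least 100 CPM, by the root mean square difference in centred log2 CPM. For Prm1 they were Aurkaip1 (0.0280), Odf1 (0.0301) and Fau (0.0368). Odf1, a protein of the outer dense fibres of the sperm tail, had 309 ± 65.9 CPM in SKO and 193 ± 18.2 CPM in WT (SD, n = 3 each). For Prm3 they were Ndufa2 (0.0431), Sem1 (0.0581) and Rpl32 (0.0583), and for Tnp2 Smkr-ps (0.0391), Odf1 (0.0439) and Aurkaip1 (0.0460). Tescl (0.0583) and Nkapl (0.0585) were among the genes most like Prm2. Tnp1 had no such close match: Map4k1 (0.0676), C1qtnf4 (0.0790) and Iqcf4 (0.0994). Among the members themselves Prm1 and Tnp2 were the closest pair at 0.0598, and Tnp1 was farthest from Prm1 and Prm3, at 0.306 from each. With 6 libraries and 2 genotypes these distances describe the profiles and test nothing.

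Of 19 genes that encode activators of spermatid transcription, 7 were called higher and 1 lower, with a median log2 fold change of 0.32 against 0.01 over all genes, of which 21.2% were called higher and 20.9% lower. The number called higher was 11 with the length and GC correction and 5 with library totals or the replicate block. Among 2196 genes of at least 100 CPM outside the family, 849 were called higher and 309 lower, at a median log2 fold change of 0.22. Several genes of this list and of those below are that abundant. Crem, the activator that binds cAMP-response elements of these genes, was at 1110.7 ± 128 CPM in SKO and 856 ± 60.7 CPM in WT (SD, n = 3 each) and was called higher narrowly (0.38, SE 0.13, edgeR adjusted p = 0.0413). Its call ended with library totals (0.13, adjusted p = 0.377) and in 5 of the fits that left out 1 library, all but the fit without SKO replicate 3 (adjusted p = 0.0508 to 0.169). Fhl5, the coactivator of CREM known as ACT, was at 614 ± 110 CPM in SKO and 356 ± 31.7 CPM in WT (0.79, adjusted p = 0.00293).

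Relatives of core transcription factors with known roles in male germ cells were also called higher. Taf7l was at 76.2 ± 4.09 CPM in SKO and 34.6 ± 0.325 CPM in WT (log2 fold change 1.14, edgeR adjusted p = 0.000168), and Tbpl1, known as TRF2, at 1098 ± 121 CPM in SKO and 737 ± 26.7 CPM in WT (0.58, adjusted p = 0.00522). Tbpl1 was not called after the length and GC correction (0.19, adjusted p = 0.113). Taf7 (1.14, adjusted p = 0.000873) and Mybl1, a regulator of meiotic genes (0.98, adjusted p = 0.00215), were also called higher. The 1 gene called lower was Rfx4 (−0.78, adjusted p = 0.00413). Rfx2, a regulator of spermatid genes needed for round spermatids to progress, was at 94.0, 79.6 and 128 CPM in SKO replicates 1, 2 and 3, against 96.7, 112 and 88.5 CPM in WT replicates 1, 2 and 3 (0.02, adjusted p = 0.941), and was called higher with the length and GC correction (0.53, adjusted p = 0.00405). Kdm3a, a histone demethylase that in mice is needed for transcription of Prm1 and Tnp1, was at 63.6 ± 11.1 CPM in SKO and 52.7 ± 7.65 CPM in WT, and did not pass (0.27, adjusted p = 0.234).

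Among 30 genes for storage and translation of spermatid mRNA, 6 were called higher and 3 lower, with a median log2 fold change of 0.13; shares over all genes were 21.2% and 20.9%. With the length and GC correction 11 were called higher and 2 lower, and with a library left out 4 to 9 were called higher, 9 of them without SKO replicate 3. Ybx2, or MSY2, the protein that coats stored protamine mRNA, was at 173 ± 38.8 CPM in SKO and 148 ± 13.8 CPM in WT (0.23, edgeR adjusted p = 0.325); it was called higher with the length and GC correction (0.58, adjusted p = 0.00287). Tarbp2, which in mice is required for protamine translation, was called lower, at 155 ± 21.0 CPM in SKO and 226 ± 10.7 CPM in WT (−0.55, adjusted p = 0.0101). After the length and GC correction it was at −0.32 (adjusted p = 0.0548). Paip2, a repressor that works through poly(A)-binding protein, was called higher at 450 ± 41.7 CPM in SKO and 260 ± 19.4 CPM in WT (0.79, adjusted p = 0.00110).

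Pabpc1, the poly(A)-binding protein itself, was at 1416.9 ± 123 CPM in SKO and 815 ± 31.7 CPM in WT (0.80, edgeR adjusted p = 0.000745), and the cap-binding repressor Eif4e2 at 204 ± 14.5 CPM in SKO and 133 ± 3.19 CPM in WT (0.62, adjusted p = 0.00280). Tdrd7, a chromatoid body protein, was called lower at 139 ± 17.8 CPM in SKO and 264 ± 49.6 CPM in WT (−0.92, adjusted p = 0.00189). Celf1 was called lower too (−0.87, adjusted p = 0.00300). Ddx25, a helicase of the chromatoid body, was at 2360.2 ± 466 CPM in SKO and 1722.3 ± 34.1 CPM in WT (0.45, adjusted p = 0.039), a call that ended with library totals (0.21, adjusted p = 0.234) and without any 1 library other than SKO replicate 3 (adjusted p = 0.107 to 0.155). Papolb, the testis poly(A) polymerase (−0.10, adjusted p = 0.74), and Fxr1, a translational activator in spermatids (−0.02, adjusted p = 0.902), did not pass.

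Of 32 genes for histone removal and protamine handling, 8 were called higher and 4 lower, against 21.2% and 20.9% of all genes tested. The median log2 fold change was 0.17. The counts moved most of any list with the setting: 4 were called higher and 7 lower with library totals, and 14 higher and 4 lower after the length and GC correction. Psme4, a proteasome activator that takes part in histone loss in spermatids, was called higher at 337 ± 43.6 CPM in SKO and 193 ± 15.4 CPM in WT (0.81, edgeR adjusted p = 0.00154). The chromatin reader Ing2 (0.85, adjusted p = 0.000831) and the ubiquitin ligase Huwe1 (1.35, adjusted p = 0.000881) were called higher as well. Chd5, a remodeller of spermatid chromatin, was at 22.5 ± 6.93 CPM in SKO and 13.9 ± 1.36 CPM in WT (0.70, adjusted p = 0.0269). Its call ended without SKO replicate 3 (0.38, adjusted p = 0.056) and without any 1 of the WT libraries (adjusted p = 0.0636 to 0.0977), and with library totals (0.47, adjusted p = 0.138).

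Camk4, a kinase that in mice phosphorylates PRM2, was called lower, at 37.4 ± 0.931 CPM in SKO and 57.2 ± 2.13 CPM in WT (−0.61, edgeR adjusted p = 0.00420). The acetyltransferase Kat5 (−0.99, adjusted p = 0.000953) and Cdyl, a chromodomain protein (−0.71, adjusted p = 0.00360), were called lower too. Brdt, the bromodomain protein that reads acetylated histones before their removal, was at 322 ± 83.0 CPM in SKO and 257 ± 17.1 CPM in WT (0.32, adjusted p = 0.192), and passed without SKO replicate 3 (0.49, adjusted p = 0.00168). Rnf8, a histone ubiquitin ligase, was at 4.37 ± 1.84 CPM in SKO and 2.39 ± 0.538 CPM in WT (0.87, adjusted p = 0.0553). Srpk1, a kinase of protamine 1 (0.24, adjusted p = 0.165), and Hspa2, a chaperone of transition proteins (−0.29, adjusted p = 0.115), did not pass. Srpk1 was called higher with the length and GC correction (0.44, adjusted p = 0.00706) and without SKO replicate 3 (0.27, 0.0373), and Hspa2 was called lower with library totals (−0.53, 0.0188) and without SKO replicate 3 (−0.45, 0.00306).

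Of 18 testis histone variants, 10 were called higher and 0 lower, against 21.2% and 20.9% of all genes tested. The median log2 fold change was 0.67. Without SKO replicate 3, WT replicate 1 or WT replicate 2, 6 were called higher. The length and GC correction is void for this list, because 12 of the 18 genes, 5 of them called higher, had no transcript length under their name in the annotation. Hils1, a linker-histone-like protein of spermatids, was at 1495.4 ± 226 CPM in SKO and 906 ± 62.9 CPM in WT (0.72, edgeR adjusted p = 0.00299). The X-linked short variants H2ab3 (1.74, adjusted p = 5.65e-05), H2ab1 (1.74, adjusted p = 0.000138) and H2al3 (1.38, adjusted p = 0.000111) had the lowest p. H2al2a, the variant that in mice loads transition proteins onto DNA, was at 48.0 ± 8.41 CPM in SKO and 36.0 ± 2.73 CPM in WT (0.41, adjusted p = 0.0671). H1f6 was called higher at 3.22 ± 0.506 CPM in SKO and 1.77 ± 0.294 CPM in WT (0.86, adjusted p = 0.0232), a call that ended without SKO replicate 3 (0.69, adjusted p = 0.057), WT replicate 1 (0.87, 0.0674) or WT replicate 2 (0.74, 0.0864), and with library totals (0.63, 0.0856). H1f7, a linker histone of round and elongating spermatids, was at 173 ± 31.1 CPM in SKO and 168 ± 14.4 CPM in WT (0.04, adjusted p = 0.866). H2bc1 and H2ac1, which are first made in earlier germ cells, were at 1.07 ± 0.223 and 0.247 ± 0.0599 CPM in SKO and at 0.831 ± 0.320 and 0.161 ± 0.114 CPM in WT, and did not pass (adjusted p = 0.520 and 0.567).

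**Figure D5:**
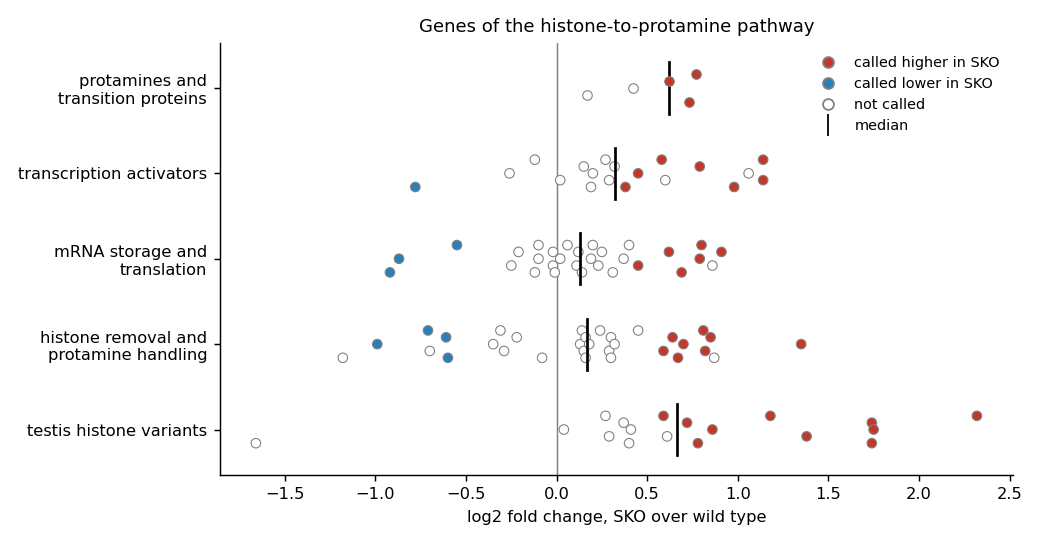
Log2 fold change, SKO over WT, of the 5 protamine and transition protein genes and of 4 lists of pathway genes (19, 30, 32 and 18 genes tested), with list medians as vertical lines; red points were called higher in SKO, blue ones lower, and open ones were not called. The medians are 0.62 for the 5 genes and 0.32, 0.13, 0.17 and 0.67 for the lists from top to bottom.

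Some lists of markers for germ cell stages and other testis cells moved with the genotype, and their part in the values above was not tested. The libraries are of sorted round spermatids, so sums of spermatid markers do not tell other cells from the sorted ones. Summed CPM of 18 genes listed as elongating spermatid markers was 12836.6 to 14058.1 in SKO and 8783.2 to 9446.6 in WT. Of these genes 10 were called higher and 1 lower, against 21.2% and 20.9% of all genes tested, and the median log2 fold change was 0.59. The median was 0.28 after the length and GC correction, with 8 called higher and 1 lower, and 0.38 without SKO replicate 3. In the summed CPM, SKO replicate 3 was the lowest SKO library, while it was the highest for the 5 protamine and transition protein genes. The single markers split in this. Smcp, the most abundant, was lowest in SKO replicate 3 (2951.9, 3313.3 and 2124.4 CPM in SKO replicates 1, 2 and 3), as were Pgk2 and Cabs1. Gpx4 was highest there (2258.6, 2332.4 and 3346.0 CPM), as were Hspb9 and Odf1. Of 12 markers of early round spermatids 8 were called higher and 1 lower, at summed CPM of 7259.1 to 7895.3 in SKO and 4857.2 to 5265.2 in WT. Their median log2 fold change was 0.52, or 0.33 after the length and GC correction and 0.42 without SKO replicate 3. Spermatocyte markers summed to 1458.6, 1510.5 and 1144.1 CPM in SKO and 1319.4, 1309.0 and 1330.4 CPM in WT replicates 1, 2 and 3, with 1 of 10 called higher and 1 lower.

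Of 12 Sertoli cell markers listed, 6 had a row in the counts, and Sox9, Amh, Rhox5, Wt1, Gata4 and Fshr had none. All 6 with a row were called higher, where 21.2% of all genes tested were called higher and 20.9% lower. Their sum was 186, 108 and 58.6 CPM in SKO replicates 1, 2 and 3, against 2.16, 4.09 and 9.60 CPM in WT replicates 1, 2 and 3. SKO replicate 3, the highest library for the 5 genes, was the lowest SKO library for this sum. Leydig cell markers summed to 43.9, 7.22 and 33.8 CPM in SKO and 1.23, 1.43 and 20.1 CPM in WT replicates 1, 2 and 3, with 3 of 5 called higher and 0 lower. Macrophage markers summed to 1.94 to 7.35 CPM in SKO and 3.99 to 4.81 CPM in WT, with 1 of 4 called higher and 1 lower, so the sum hides opposite changes. Peritubular and endothelial markers came to 15.2 to 33.3 CPM in SKO and 3.98 to 10.1 CPM in WT, with 1 of 2 called higher. Spermatogonial markers came to 4.17 to 6.24 CPM in SKO and 7.0 to 10.5 CPM in WT, with 2 of 3 called lower. Rows in the counts were present for 5 of 6 Leydig, 5 of 6 macrophage, 2 of 5 peritubular and endothelial and 3 of 6 spermatogonial genes listed. A gene at 0 in all libraries cannot pass the filter on low counts, so no marker tested could be at 0 throughout.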

How the data were processed

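Polyadenylated RNA of 6 sorted round spermatid samples was measured by Smart-seq2 with paired reads of 150 bases, per the labels. The authors deposited a raw count for every gene in each library. The submitters' processing notes name GRCm38 (mm10), Subread's featureCounts 1.5.0-p3, HISAT2 2.0.5, FastQC and Trim Galore 0.6.4. Strand setting, annotation release and the treatment of reads with several matches: not given in the sources used here.

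Columns were matched to samples by genotype and replicate number; the columns' knockout prefix was taken as the genotype labelled SKO. Replicates of a group differed beyond sampling noise (chi-square per degree of freedom 14.8 to 149), so all 6 libraries were kept. edgeR 4.0.16 (R 4.3.3) was run with filterByExpr (minimum counts 10 and 15), TMM and the 2-sided quasi-likelihood test on genotype alone, and p-values were adjusted by Benjamini and Hochberg's method over the 19776 genes that passed; 2994 did not. An SE is the size of the log2 fold change over the square root of F. The fit was tested on simulated data. Length, GC content and structure came from GENCODE M21, taking per gene the transcript that codes for the longest protein. The length and GC correction was a loess fit per library (span 0.3, genes of mean log2 CPM of at least 1). Ratios and shares were compared by 2-sided exact permutation tests. Promoter windows were RefSeq's, and all 5 genes matched by symbol.

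The 5 members and all lists were chosen with earlier results of these data known. Named genes were the members, Eif5a, list genes marked as key whatever their values, up to 3 called higher and 3 called lower per pathway list by lowest adjusted p, all genes tested within 250 kb, and the 3 most similar profiles per member. One gene that this rule names is not reported here. List genes without a row in the counts were not analysed here. Same-numbered SKO and WT replicates did not deviate together (correlations −0.0221, −0.0511 and −0.0655), so the numbers were not treated as pairs. Alternatives were DESeq2 1.42.0, limma 3.58.1 (voom), other scalings and filters, a replicate block, the length and GC correction and leaving out each library.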

Additional observations from a re-analysis of the deposited data

How the results depend on the processing

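Prm1, Prm3 and Tnp2 stayed called higher with DESeq2 size factors, upper quartile factors, both filters, the replicate block, the DESeq2 test and limma-voom. With the length and GC correction the log2 fold changes were 0.12 for Prm1, −0.049 for Prm2, 0.10 for Prm3, −0.49 for Tnp1 and 0.0933 for Tnp2. With library totals Prm3 was at 0.54, Tnp1 at −0.0563 and Tnp2 at 0.39, and 2831 genes were called higher and 5666 lower, against 4185 and 4127. With scaling over short coding transcripts, chosen after the data were seen, the 5 genes were at −0.19 (Prm1), −0.50 (Prm2), −0.16 (Prm3), −0.76 (Tnp1) and −0.30 (Tnp2), and 807 genes were called higher and 10274 lower. Leaving out each library gave ranges of 0.49 to 0.82 for Prm1, 0.15 to 0.51 for Prm2, 0.44 to 0.92 for Prm3, −0.17 to 0.31 for Tnp1 and 0.37 to 0.71 for Tnp2, 6089 to 9095 genes called, a difference in share of 0.011 to 0.07 percentage points, and log2 ratio differences of 0.284 to 0.343, −0.541 to −0.415, −0.034 to −0.011 and 0.126 to 0.251 in the order in which the ratios were given. At an adjusted p under 0.01, 5164 genes were called.

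With the replicate number as a block, which the numbers do not support as a pairing, 7218 genes were called and the members' values were 0.71 for Prm1, 0.39 for Prm2, 0.72 for Prm3, 0.12 for Tnp1 and 0.59 for Tnp2; no member's call changed. The block ended the calls of Crem, Ddx25, Chd5 and Nkapl, and histone removal genes called higher numbered 4, against 8.

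Other named genes changed direction as follows. With library totals 1700027A15Rik was at −0.0144, H1f7 at −0.19, Iqcf4 at −0.0285, Map4k1 at −0.12, Rfx2 at −0.21, Srpk1 at −0.00602 and Ybx2 at −0.000401. With the length and GC correction 1700027A15Rik was at −0.33, H2al2a at −0.13, Hspa2 at 0.11 and Iqcf4 at −0.29. Fxr1 was at 0.00958 with upper quartile factors and 0.000978 with a filter of 5 CPM, and Rfx2 at −0.00152 with the replicate block and −0.00153 with limma-voom. Without 1 library the ranges were −0.0498 to 0.35 for C1qtnf4, −0.14 to 0.0493 for Fxr1, −0.15 to 0.11 for H1f7, −0.0142 to 0.30 for Iqcf4, −0.15 to 0.24 for Map4k1, −0.29 to 0.10 for Papolb and −0.23 to 0.14 for Rfx2. None of these genes was called in the fit with TMM scaling, no correction and all 6 libraries. With the length and GC correction C1qtnf4 (0.38), Map4k1 (0.60), Rfx2 (0.53), Rnf8 (1.04), Srpk1 (0.44) and Ybx2 (0.58) were called higher, and with library totals Dexi (−0.56) and Hspa2 (−0.53) were called lower. Over 56 named genes outside the family, 738 of 829 values kept their direction and side of the threshold, 49 were no longer past it, 18 newly past it and 24 reversed. The cause of these changes was not tested. Counts of at least 2035 per library lie behind each member. They limit the error of counting reads alone, because PCR copies were not counted as molecules. Of the libraries left out in turn, SKO replicate 3 moved the members' values most.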
